A study of Mus musculus with 40 samples.

Results

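The transcripts that set the mouse kidney apart from the lung and the heart at 1 week of age were compared on 13 of the 40 arrays of the series, 5 from kidney, 4 from lung and 4 from heart. Every animal was a male of the strain C57BL/6 with no treatment named in the labels, and each array held RNA of a whole organ. The labels call organs of this age rapidly proliferating, and the series follows them to 4 weeks (all 3 organs) and 8 weeks (kidney and lung), with 5 arrays in each of its 8 groups. The question was which transcripts mark the kidney while the organ is still growing fast. A gene was called higher or lower when its kidney arrays differed in the same direction from lung and from heart, each with an adjusted p under 0.05 in limma. The arrays labelled lung replicate 4 and heart replicate 5 of this age were left out, since lung replicate 4 gave a signal of 36022 for Myh6, the cardiac myosin gene, and heart replicate 5 gave 27187 for Sftpc, the surfactant protein C gene. The design text speaks of 5 animals per group. The labels do not say which organs came from the same animal, so a p-value here covers the spread between these arrays.

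The mouse kidney is born unfinished. New nephrons are still laid down in the first days after birth, from cap mesenchyme progenitors that meet the tips of the branching ureteric bud, and the tubules mature over the following weeks. Each nephron filters blood in a glomerulus lined by podocytes, recovers most solutes in the proximal tubule, dilutes the fluid in the thick ascending limb, and adjusts salt, acid and water in the distal tubule and collecting duct.

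Signals are in array units, and differences are in log2(signal + 16) with the standard error (SE) from limma. The nearer difference of a gene is the smaller in size of its kidney minus lung and kidney minus heart differences. Means are given with the standard deviation (SD) over 5 kidney, 4 lung and 4 heart arrays. The offset of 16 understates the fold of dim genes, and many genes named here lie near that offset in lung and heart. In whole-organ RNA, fewer cells of a type and less RNA per cell cannot be told apart.

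Pairs of arrays within an organ correlated at 0.948 to 0.977 in kidney, 0.970 to 0.976 in lung and 0.947 to 0.977 in heart. Added poly-A controls read higher in heart (mean log2 11.31 to 12.40) than in lung (9.40 to 10.66), and kidney spanned 9.25 to 11.92. The 3′ to 5′ difference of the actin control was 0.34 to 0.51 in kidney, 0.36 to 0.46 in lung and 0.36 to 0.59 in heart. In the sample descriptions the 5 kidney arrays and heart replicate 1 carry an upper-case letter and the other arrays of this comparison a lower-case one, whose meaning is not given in the sources used here. With that letter as a block, the kidney is set against heart replicate 1 alone within its own letter. That array had the lowest median signal of the 13 (135.1) and the highest poly-A (12.4) and hybridisation controls (12.8). Against lung no kidney array shares the letter, so the letter and the organ cannot be told apart there without heart replicate 1. The mean of the 45 genes of proximal tubule transport with a value was 10.67 to 10.78 on the 5 kidney arrays. It was 6.91 to 7.34 on lung and 6.58 to 7.23 on heart, and no array of another organ overlapped the kidney arrays.

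Of 14309 genes tested, 1854 were higher in kidney than in both other organs (13%) and 1233 were lower than in both (8.62%). Against lung alone the kidney was higher for 22.4% of genes and lower for 22.7%, and against heart alone it was higher for 27.0% and lower for 20.7%. Another 533 genes were above lung and below heart, and 437 were below lung and above heart. The genes higher in kidney stood further apart than the lower ones. Their median nearer difference was 1.02, against -0.78 for the lower genes, and 271 of them exceeded 3 against 23 of the lower genes. The kidney arrays lay above every lung and heart array for 1570 of the higher genes and below every one for 905 of the lower genes. The calls come from the same arrays, so this lack of overlap is partly built in and is not separate support for them. Over all genes tested the median difference was -0.04 against lung and 0.06 against heart. With the description letter as a block, 1522 genes were higher and 708 lower, and 1138 and 533 of these were also called without the block.

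**Figure D1:**
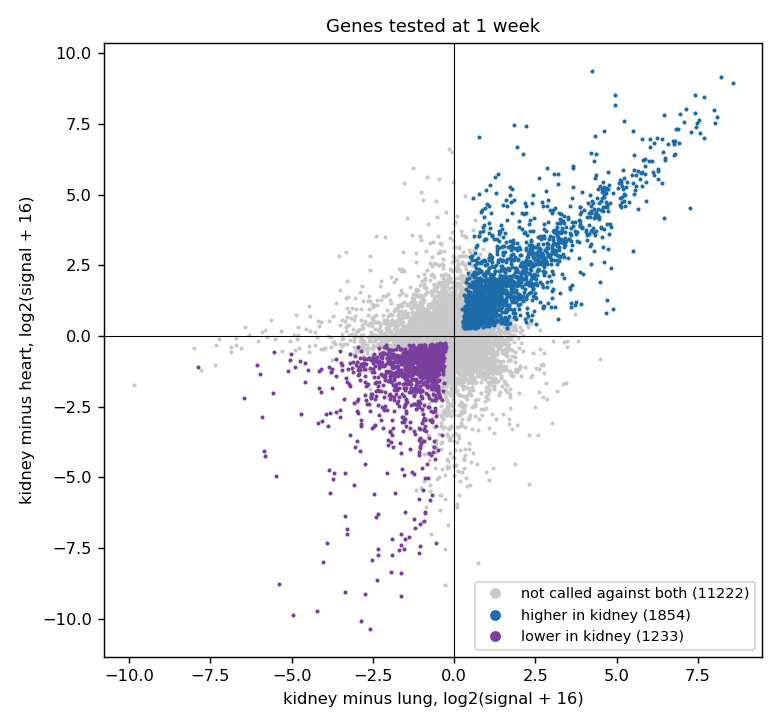
Difference between kidney and lung (horizontal axis) and between kidney and heart (vertical axis) at 1 week, in log2(signal + 16), 1 point per gene tested. Genes called higher in kidney (1854, blue) reach much further along the upper diagonal than genes called lower (1233, purple) reach along the lower one, and the purple points that fall furthest do so on the heart axis.

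The 15 genes with the largest nearer differences among those whose kidney arrays overlapped no lung or heart array included genes of the proximal tubule, the thick ascending limb and the distal tubule. Fxyd2, the gamma subunit of the sodium pump, gave signals of 22421, 17499, 21072, 18192 and 17911 on kidney replicates 1 to 5, 31.9, 38.1, 35.5 and 34.6 on the lung arrays and 39.9, 27.7, 20 and 9.7 on the heart arrays. Every kidney array was far brighter than any array of the other organs, with differences of 8.57 (SE 0.18) against lung and 8.96 (SE 0.18) against heart (adjusted p = 7.6e-13 and 3.1e-13). Umod, which encodes uromodulin, the protein that the thick ascending limb sheds into urine, gave 15693, 12706, 15129, 14957 and 10646 in kidney, 28.1, 11.8, 51.2 and 38.7 in lung and 7.3, 10.2, 9.1 and 5.6 in heart. The differences were 8.22 (SE 0.21) and 9.16 (SE 0.21) (adjusted p = 5.4e-12 and 1e-12). Kl, which encodes klotho, the co-receptor for the phosphate hormone FGF23, gave 6494, 5713, 5048, 5068 and 5730.3 in kidney, against 1.8 to 80.8 in lung and 4.7 to 30.1 in heart. The other genes of the leading 15 were Cyp2j5 (nearer difference 8.00), a cytochrome P450 of arachidonic acid metabolism, Cltrn (7.75), the collectrin that carries amino acid transporters to the brush border, the protease inhibitor gene Spink1 (7.70), the tissue kallikrein gene Klk1 (7.54), Cyp2d26 (7.53), Spp2 (7.42), Aadat (7.41), Pdzk1 (7.40), Mep1b (7.21), Hao2 (7.17), Pck1 (7.13) and Slc34a1 (7.07).

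**Figure D2:**
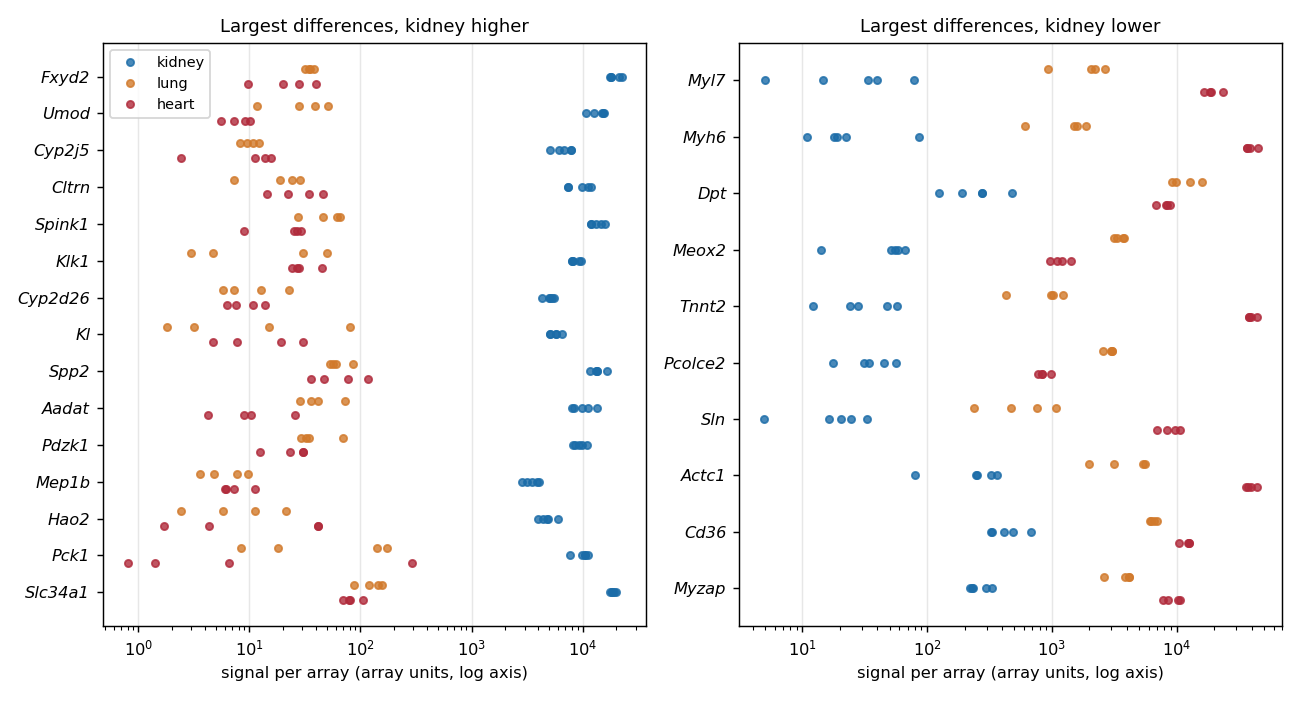
Signal on each array (log axis) for the 15 genes with the largest nearer difference among those higher in kidney (left) and the 10 among those lower (right), each point 1 array, blue for kidney, orange for lung and red for heart. On the left the kidney points lie far to the right of the lung and heart points, and on the right the blue points lie to the left of all others.

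The proximal tubule recovers glucose, amino acids, phosphate and organic anions from the filtrate through solute carriers of its brush border and basolateral membrane. Of its 44 tested transport genes 40 were higher in kidney, against 13% of all genes tested, and none was lower. The medians were 3.28 against lung and 3.61 against heart. A gene was tested if at least 1 organ averaged 117.9 or more, so a list gene bright in kidney alone had to differ. The lists were also chosen with earlier results of these data known. This count and those of the lists below therefore describe the genes tested and are not a test of the lists. Slc34a1, the main sodium-phosphate cotransporter of this segment, gave 18434, 17468, 19150, 20078 and 18509 on the kidney arrays, 156, 119, 142 and 87.9 on lung and 80.8, 105, 69.4 and 79.0 on heart. Its kidney arrays stayed within a narrow band far above the rest (differences 7.07 (SE 0.15) and 7.57 (SE 0.15), adjusted p = 7.6e-13 and 2.9e-13). Slc5a12, a lactate transporter (2506 in kidney, 5.35 in lung, 3.88 in heart), Slc27a2, which takes up long-chain fatty acids (7843, 62.4 and 60), and the organic anion transporter Slc22a8 (4776, 45.9 and 24.0) followed. Slc5a2, the high-capacity glucose transporter, averaged 5033 ± 879 in kidney (SD, n = 5) with a nearer difference of 4.55, and Slc5a1, its high-affinity counterpart, averaged 824 ± 125 with a nearer difference of 2.57. The 4 that were not called were Slc22a7, Slco1a1, Slc16a9 and the water channel Aqp1, which averaged 5945 in kidney, 12070 in lung and 3240 in heart and was below lung.

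Of 19 tested genes of protein uptake and brush border, 18 were higher in kidney (medians 4.69 and 5.19). Lrp2, which encodes megalin, the receptor that pulls filtered proteins into the proximal tubule, gave 10449, 9357, 10600.5, 9099.7 and 10179.8 in kidney, 271, 439, 261 and 269.7 in lung and 9.8, 49.4, 11.8 and 14.2 in heart. Lung stood well above heart for this gene, so the kidney difference was 4.96 (SE 0.24) against lung and 8.17 (SE 0.24) against heart. Its partner Cubn, cubilin, showed the opposite order of the other organs, with 6282 ± 1245 in kidney, 29.8 ± 26.3 in lung and 254 ± 31.2 in heart. Amn, which anchors cubilin, the scaffold gene Pdzk1, the meprin genes Mep1a and Mep1b and the folate receptor Folr1 each had a nearer difference of at least 5.2. The member not called, Enpep, an angiotensin-cleaving peptidase, averaged 7993 in kidney and 10590 in lung.

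In the thick ascending limb list, 13 of 15 tested genes were higher in kidney (medians 3.62 and 3.75). Slc12a1, the furosemide-sensitive salt transporter, gave 14689, 13324, 14063, 11110.2 and 11386 in kidney, 134, 98.0, 68.2 and 82.1 in lung and 45.4, 68.4, 71.4 and 74.2 in heart. Every kidney array was far brighter than any lung or heart array, and the differences were 6.88 (SE 0.17) and 7.33 (SE 0.17) (adjusted p = 4.3e-12 and 1.1e-12). Kcnj1, the potassium channel that recycles potassium for this transporter, had a nearer difference of 6.73, and Sostdc1, a BMP antagonist, of 6.95. Egf, whose precursor the distal tubule makes, was already higher in kidney (1067 ± 188) than in lung (124 ± 33.2) and heart (265 ± 38.7). Ptger3 was called above heart alone, and Ptgs2, cyclooxygenase 2, was above heart and below lung.

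In the distal convoluted and connecting tubule 11 of 15 tested genes were higher (medians 2.98 and 2.90). Slc12a3, the thiazide-sensitive transporter, gave 5912, 4926, 5067, 3765 and 4739 in kidney against 25.0 to 31.7 in lung and 21.2 to 92.2 in heart, with differences of 6.78 (SE 0.24) and 6.41 (SE 0.24). The calcium-binding protein gene Calb1 differed by 6.59 (SE 0.34) and 6.81 (SE 0.34). S100g, a second calcium-binding protein gene, was raised less against lung (4.25) than against heart (9.39). In the collecting duct, 8 of 16 tested genes of principal cells and 13 of 16 of intercalated cells were higher. Aqp2, the water channel that vasopressin moves to the cell surface, gave 4335, 3702, 3395, 3929 and 3922 in kidney, 207, 160, 201 and 113 in lung and 183, 217, 204 and 163 in heart, without overlap. Of the sodium channel genes that principal cells share with lung epithelium, Scnn1a averaged 1262 in kidney and 2041 in lung and Scnn1g 1411 and 2508, and neither was called higher. Rhcg, an ammonia channel of intercalated cells, gave 3830, 3149, 2614, 2862 and 2864 in kidney and differed by 5.88 (SE 0.15) and 6.28 (SE 0.15) from signals of 29.2 to 43.8 in lung and 15 to 34.1 in heart. Foxi1, the transcription factor that intercalated cells need, averaged 1114 ± 218 in kidney and differed by 4.29 (SE 0.28) and 4.50 (SE 0.28). Among chloride-bicarbonate exchange genes of this list, Slc4a9 and Slc26a4 were higher in kidney, whereas Slc4a1 averaged 869 in kidney against 3450 in lung. The 2 tested erythroid genes were below lung as well, and the part of blood cells in the Slc4a1 signal was not tested.

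Of 22 tested genes of podocytes and the glomerular basement membrane 11 were higher in kidney, none was lower, and all but 3 were above heart, while the medians were 0.27 against lung and 1.60 against heart. Nphs1, which encodes nephrin of the slit diaphragm, gave 1071, 900.1, 810.1, 918 and 1088 in kidney, 123, 146, 112 and 103 in lung and 104, 117, 166 and 174 in heart. The kidney arrays were several times brighter than all others, with differences of 2.83 (SE 0.16) and 2.66 (SE 0.16) (adjusted p = 5.1e-09 and 6.7e-09). The phosphatase gene Ptpro differed by 2.74 (SE 0.20) and 2.71 (SE 0.20). Wt1, a transcription factor of podocytes and of the mesothelium that covers the heart, gave 812, 1278, 882, 1061 and 1317 in kidney, 155, 101, 128 and 91.9 in lung and 302, 473, 456 and 392 in heart, and differed by 3.00 (SE 0.19) and 1.36 (SE 0.19). Members bright in both kidney and lung included Npnt (14430 in kidney, 14860 in lung), Col4a3 (1755 and 1734) and Col4a4 (3924 and 4011), the last 2 being type IV collagen chains of both glomerular and alveolar basement membrane. The count was 8 with the mean of all probe sets of a gene and 6 with the description letter as a block.

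Of 9 tested genes of hormone production and sensing, 7 were higher. Cyp27b1, the enzyme that activates vitamin D, gave 1139, 1174, 393, 1153 and 1546 in kidney, and replicate 3 stood lowest. It lay above every lung array (9.7 to 17.6) and heart array (4.2 to 82.4), with differences of 5.11 (SE 0.42) and 4.63 (SE 0.42) (adjusted p = 2.5e-07 and 5.3e-07). Cyp24a1, which breaks vitamin D down, ranged over 635 to 2404 in kidney and differed by 4.38 (SE 0.35) and 5.71 (SE 0.35). The parathyroid hormone receptor Pth1r (3.55), the vitamin D receptor Vdr (3.13) and the calcium sensor Casr (1.55) were higher too, by their nearer differences. Ace, the angiotensin-converting enzyme, was below lung, and Agt, angiotensinogen, was called above heart alone.

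**Figure D3:**
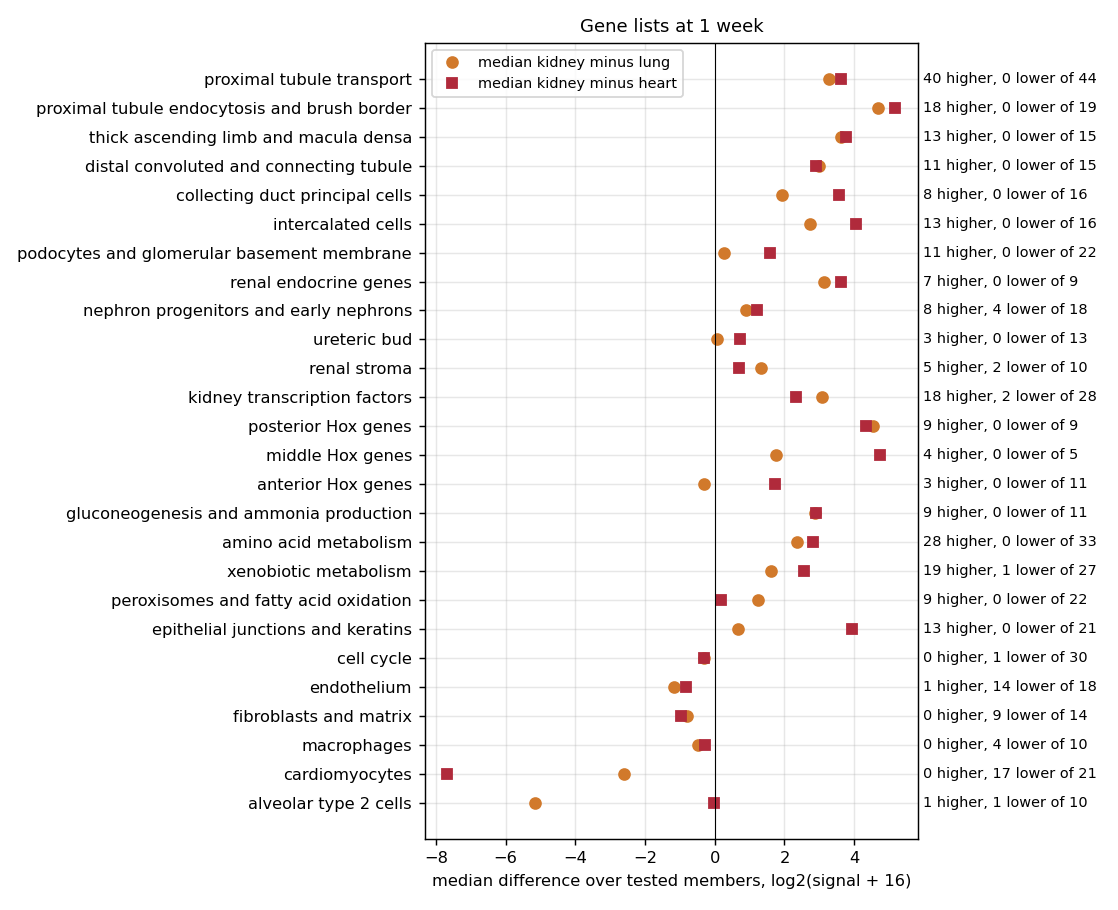
Median difference between kidney and lung (orange circles) and between kidney and heart (red squares) in log2(signal + 16) over the tested members of 26 gene lists at 1 week, with the numbers called higher and lower at the right. Tubule, posterior Hox and metabolic lists lie to the right of 0 on both measures, whereas endothelium, matrix and cardiomyocytes lie to the left.

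Transcription factors of the kidney were among the genes that set it apart. Of 28 tested, 18 were higher and 2, Irx3 and Osr1, were lower. Hnf4a, which drives proximal tubule genes, gave 6926, 4357, 5165, 4638 and 3800.1 in kidney, 39.8, 114, 102 and 50.0 in lung and 33.3, 46.5, 47.4 and 80.1 in heart. Replicate 1 was the highest, all 5 lay far above the others, and the differences were 5.82 (SE 0.27) and 6.21 (SE 0.27) (adjusted p = 8.3e-10 and 2.7e-10). Pou3f3, a factor of the loop of Henle and distal nephron, differed by 5.53 (SE 0.13) and 5.87 (SE 0.13), and Emx2, needed in the ureteric bud, by 4.58 (SE 0.17) and 5.47 (SE 0.17). Pax8, which acts from the earliest renal lineage on, gave 1837, 1689, 1461, 1619 and 1949 in kidney and differed by 3.30 (SE 0.17) and 3.43 (SE 0.17).

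The Hox genes are ordered along the chromosome as they are along the body axis, and the kidney forms at the level of the posterior ones. Of 14 posterior Hox genes with a value (paralog groups 9 to 13) 9 were tested and all 9 of those were higher in kidney (medians 4.56 and 4.33). Of the middle genes (groups 6 to 8) 4 of 5 tested were higher, and of the anterior genes (groups 1 to 5) 3 of 11. A Hox gene that passed the signal filter through its kidney arrays alone had to differ, so these counts describe the genes tested and not the family. Hoxd10 gave 1803, 1929, 1895, 1882 and 1691 in kidney, 4.2, 9.2, 5.5 and 1.2 in lung and 30.2, 2.5, 5.7 and 3.8 in heart, where every value was near or under the offset except heart replicate 1. The differences were 6.48 (SE 0.23) and 6.24 (SE 0.23). Hoxa9 differed by 6.03 (SE 0.31) and 6.97 (SE 0.31), and Hoxd11, which with Hoxa11 is required for kidney formation, gave 417, 464, 363, 505 and 452 in kidney with differences of 3.39 (SE 0.17) and 2.79 (SE 0.17). The 5 posterior genes not tested, Hoxa13, Hoxb13, Hoxc13, Hoxd12 and Hoxd13, lay under the filter of 117.9 in every organ, as Hoxa13 did at 78.4 in kidney, 84.8 in lung and 84.9 in heart. Of the anterior members 5 were below lung, among them Hoxa5 at 716 in kidney and 1688 in lung, and Hoxb5 at 397 and 818. The 3 anterior genes called higher, Hoxc4 (2.59), Hoxc5 (1.73) and Hoxd3 (2.06), averaged 181, 207 and 256 in kidney, and with the filter set at the 60th percentile 8 anterior genes were tested and none was called.

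Promoters of the genes higher in kidney were searched for the binding letters of HNF1 and HNF4, factors known to act in the proximal tubule, in the 250 bases before the start of transcription (RefSeq, GRCm38.p6, both strands). The HNF1 letters, GTTAAT followed by any base and ATTA, were in 44 of 32851 promoters of the whole table (0.134%), and in 15 of 14622 promoters of genes tested (0.103%). They were in 10 of 1912 promoters of the genes higher in kidney (0.523%) and in 7 of 248 promoters of those with a nearer difference over 3 (2.82%), against 0 of 1303 promoters of the lower genes. The HNF4 letters CAAAGTCCA were in 126 of all promoters (0.384%), in 0.424% of those tested, in 0.471% of those of higher genes, in 4 of the 248 (1.61%, from 3 genes, since 2 overlapping promoters of Agxt2 share 1 match) and in 0.46% of those of lower genes. TCAAGGTCA, the letters of the estrogen-related receptors, were in 0.301% of those tested, 0.209% of those of higher genes and 1 of the 248 (0.403%). The table held promoters for 11478 of the 14309 genes, for 1477 of the 1854 higher genes and for 208 of the 271 with a nearer difference over 3. A match is a description of the letters and not a site shown to be bound. The 4 promoters with HNF1 letters and the largest nearer differences are shown first, written 5′ to 3′ in the direction of transcription with the matching letters in capitals, so that the place of the letters can be seen. They are those of Cltrn (chrX:164089937-164090186, + strand), F13b (chr1:139501457-139501706, + strand), Pkhd1 (chr1:20618058-20618307, - strand) and Prodh2 (chr7:30493408-30493657, + strand).
Cltrn: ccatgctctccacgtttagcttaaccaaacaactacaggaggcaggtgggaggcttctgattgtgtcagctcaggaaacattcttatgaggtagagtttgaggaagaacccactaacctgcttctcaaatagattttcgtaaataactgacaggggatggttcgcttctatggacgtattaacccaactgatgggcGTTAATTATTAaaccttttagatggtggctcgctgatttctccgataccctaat
F13b: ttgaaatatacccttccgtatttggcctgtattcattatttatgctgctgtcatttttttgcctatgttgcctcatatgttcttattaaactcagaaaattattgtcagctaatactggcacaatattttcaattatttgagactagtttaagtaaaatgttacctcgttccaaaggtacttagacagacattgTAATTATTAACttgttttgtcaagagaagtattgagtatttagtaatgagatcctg
Pkhd1: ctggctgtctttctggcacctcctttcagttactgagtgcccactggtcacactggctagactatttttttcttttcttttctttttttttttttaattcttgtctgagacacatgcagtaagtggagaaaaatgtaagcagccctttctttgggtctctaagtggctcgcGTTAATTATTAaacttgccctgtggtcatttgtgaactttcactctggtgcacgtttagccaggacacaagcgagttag
Prodh2: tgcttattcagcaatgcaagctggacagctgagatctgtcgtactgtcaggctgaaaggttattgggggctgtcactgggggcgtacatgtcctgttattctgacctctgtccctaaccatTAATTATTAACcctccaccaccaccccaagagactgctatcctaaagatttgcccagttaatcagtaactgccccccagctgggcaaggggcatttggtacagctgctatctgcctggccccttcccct
The letters begin 54 bases before the start in Cltrn, 56 in F13b, 79 in Pkhd1 and 129 in Prodh2. F13b, which encodes the carrier subunit of a clotting factor, had a nearer difference of 6.08. Pkhd1, the gene of recessive polycystic kidney disease, had one of 5.54, and Prodh2, an enzyme of hydroxyproline breakdown, one of 5.03. The other 3 of the 7 belong to Afm (3.99), Pcbd1 (3.63), whose product binds HNF1 as a cofactor, and Tmed6 (3.49). For HNF4 the leading 2 promoters were those of Aadat (chr8:60505874-60506123, + strand), an aminotransferase of lysine and kynurenine breakdown, and Slc3a1 (chr17:85028097-85028346, + strand), the cystine transporter subunit mutated in cystinuria.
Aadat: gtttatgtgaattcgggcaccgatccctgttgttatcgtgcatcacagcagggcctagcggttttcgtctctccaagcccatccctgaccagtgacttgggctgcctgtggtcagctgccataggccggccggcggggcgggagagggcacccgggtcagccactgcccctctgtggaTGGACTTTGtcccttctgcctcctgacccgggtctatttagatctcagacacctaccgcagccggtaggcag
Slc3a1: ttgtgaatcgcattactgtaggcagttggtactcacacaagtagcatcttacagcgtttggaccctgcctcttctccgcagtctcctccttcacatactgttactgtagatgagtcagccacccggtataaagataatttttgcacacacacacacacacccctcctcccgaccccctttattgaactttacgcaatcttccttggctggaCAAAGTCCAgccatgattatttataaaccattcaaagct
The HNF4 letters begin 72 bases before the start in Aadat and 39 in Slc3a1, and these genes had nearer differences of 7.41 and 5.31.

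The kidney shares several metabolic pathways with the liver, among them the making of glucose. In kidney 9 of 11 tested genes of gluconeogenesis and ammonia production were higher (medians 2.86 and 2.90). Pck1, the committing enzyme, gave 10507, 10450.1, 9887, 11138 and 7638 in kidney, 139.6, 8.4, 173 and 18.2 in lung and 0.8, 293, 6.5 and 1.4 in heart. Lung and heart were uneven, with heart replicate 2 far above the other 3, and the SE was accordingly large (differences 7.13 (SE 0.81) and 8.03 (SE 0.81)). Fbp1 differed by 6.91 (SE 0.20) and 6.82 (SE 0.20), and G6pc, which releases free glucose, by 6.03 (SE 0.18) and 6.69 (SE 0.18). Slc38a3 and Got1, which supply glutamine and aspartate, were above lung and not above heart.

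Of 33 tested genes of amino acid metabolism 28 were higher and none lower (medians 2.37 and 2.83). Hao2, a peroxisomal hydroxy acid oxidase, gave 6006, 4358, 4929, 4750 and 3952 in kidney, 2.4, 11.2, 5.8 and 21.4 in lung and 41.7, 41.3, 4.3 and 1.7 in heart, and no array of the other organs came near the kidney. Miox, which opens the inositol ring, differed by 7.68 (SE 0.30) and 6.99 (SE 0.30). Hgd of tyrosine breakdown had a nearer difference of 5.82, and Gatm, which starts creatine synthesis, of 5.41. Hpd, another tyrosine enzyme, was not called at this age (186 ± 50.0 in kidney, 121 ± 10.7 in lung, 162 ± 54.8 in heart), but was called higher with the description letter as a block, where its nearer difference was 1.005 against 0.214. Of 27 tested genes of xenobiotic metabolism, 19 were higher and Cyp4b1 was lower. Peroxisome and fatty acid oxidation genes separated by organ, since 20 of 22 tested were above lung, while 9 were above heart and 9 below it. Acsm2 (5.85), Ehhadh (4.13) and Acaa1b (4.21) were higher than in both organs by their nearer differences. The mitochondrial enzyme gene Acadl averaged 6306 in kidney, 3167 in lung and 24000 in heart.

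Genes of epithelial junctions and keratins followed the tissue they share, with all 21 tested above heart and 13 of them also above lung. Cdh16, the kidney-specific cadherin of tubules, gave 24603, 16724, 17991, 18398 and 16276 in kidney, 686, 526, 624 and 512 in lung and 101, 9.8, 45.0 and 18.4 in heart, with replicate 1 the highest. The differences were 4.96 (SE 0.34) and 8.53 (SE 0.34). Cldn2, a pore-forming claudin of the proximal tubule, had a nearer difference of 6.24 and Cldn8, of the collecting duct, of 4.60. Cdh1, the cadherin of all epithelia, averaged 4659 in kidney and 5112 in lung, and was called above heart alone.

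Genes of the unfinished kidney gave a mixed picture. Among 18 tested genes of nephron progenitors and early nephrons, 8 were higher and 4 lower than in both organs. Ncam1, a cell adhesion gene of condensing mesenchyme, gave 3423, 2056, 2131, 2280.3 and 2652 in kidney, 11.8, 11.8, 11.7 and 14.2 in lung and 511, 286, 40.7 and 23.1 in heart, where replicates 1 and 2 stood above the other 2. The differences were 6.45 (SE 0.60) and 4.18 (SE 0.60) (adjusted p = 7.7e-07 and 4.7e-05). Lhx1, a factor of the renal vesicle, gave 305, 319, 198, 349 and 334 in kidney and differed by 3.73 (SE 0.18) and 4.04 (SE 0.18), and Sall1, of the metanephric mesenchyme, differed by 4.62 (SE 0.23) and 2.61 (SE 0.23). Wnt4, which drives the mesenchyme into epithelium, averaged 693 ± 77.9 in kidney, 305 ± 55.0 in lung and 44.9 ± 14.9 in heart. Six2, which keeps nephron progenitors undifferentiated, did not stand apart. Its signals were 125, 193, 231, 176 and 268 in kidney, 158, 116, 239 and 268 in lung and 114, 282, 198 and 276 in heart, all overlapping, and the differences were 0.05 (SE 0.29) and -0.09 (SE 0.29) (adjusted p = 0.91 and 0.83). Cited1, a further progenitor gene, averaged 31.3 in kidney, 12.3 in lung and 467 in heart. The 4 lower genes were Meox1, Bmper, Osr1 and Tmem100, of which Tmem100, a gene that endothelium also expresses, averaged 92.1 in kidney and 4952 in lung. Tested members that were not called were Six2, Cited1, Eya1, Dll1, Dpf3 and Itga8.

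Of 13 tested ureteric bud genes 3 were higher, Emx2, Gata3 and Wnt9b, none was lower, and the medians were 0.06 and 0.72. These counts are too small to set apart from the 13% higher and 8.62% lower among all genes tested. Wnt9b, the signal from the bud that induces new nephrons, gave 571, 799, 664, 677 and 665 in kidney, 42.2, 35.5, 40.9 and 57.8 in lung and 67.5, 33.9, 50.7 and 44.9 in heart, without overlap, and differed by 3.53 (SE 0.16) and 3.42 (SE 0.16). Ret, the bud's receptor for GDNF, gave 94.7, 288, 290.2, 275 and 284 in kidney, 231, 205, 206 and 199 in lung and 124, 169, 351 and 282 in heart, and kidney replicate 1 was the lowest of all 13 arrays. Its differences were 0.12 (SE 0.32) and 0.09 (SE 0.32). With the description letter as a block, 6 bud genes were higher. Of 10 tested stromal genes 5 were higher and 2 lower. Penk, which encodes proenkephalin, gave 4578, 3301, 3247, 3878 and 3267 in kidney, 318, 432, 516 and 463 in lung and 85.3, 174, 162 and 204 in heart, and differed by 3.04 (SE 0.21) and 4.46 (SE 0.21). Foxd1, the factor that marks stromal progenitors, gave 343, 261, 254, 313 and 266 in kidney, 42.8, 3.8, 4.2 and 19.5 in lung and 35.3, 52.5, 68.3 and 46.9 in heart, without overlap, and differed by 3.32 (SE 0.28) and 2.20 (SE 0.28). The 2 lower genes were Meis1 and Ntn1, and neither was called with the description letter as a block. Without heart replicate 2, 1 stromal gene was lower.

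Of 21 tested cardiomyocyte genes 17 were lower than in both organs, and all 21 were below heart. The 4 not below lung were Gata4, Hand2, Myl2 and Nppb. Myl7, an atrial myosin light chain, gave 5, 33.6, 77.9, 39.5 and 14.7 in kidney, 936, 2051, 2652 and 2206 in lung and 23695, 18970.4, 18526 and 16511 in heart, in 3 separate bands. The differences were -5.39 (SE 0.38) and -8.77 (SE 0.38) (adjusted p = 5.6e-08 and 2.6e-10). With lung replicate 4 and heart replicate 5 put back, 11 of the 21 were lower. The 10 genes with the largest nearer differences among those lower were Myl7, Myh6, Dpt, Meox2, Tnnt2, Pcolce2, Sln, Actc1, Cd36 and Myzap, and not all of these are cardiac. Dpt, a matrix protein gene, gave 124, 273, 480.4, 274 and 191 in kidney, 9230.1, 9924, 16113 and 12787 in lung and 6899.6, 8906, 8265 and 8422 in heart, and differed by -5.49 (SE 0.29) and -4.96 (SE 0.29). The homeobox gene Meox2 differed by -5.83 (SE 0.25) and -4.26 (SE 0.25), and Cd36, the fatty acid receptor of capillaries and muscle, by -3.86 (SE 0.18) and -4.74 (SE 0.18). Hopx, made in alveolar type 1 cells and in cardiomyocytes, differed by -3.05 (SE 0.10) and -3.93 (SE 0.10). It was 1 of 3 alveolar type 1 genes lower than in both organs, of 7 tested, and with the description letter as a block that count was 1. All 7 airway genes were below lung and 1 was also below heart, and without heart replicate 1 this count was 3.

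Of 18 tested endothelial genes 14 were lower in kidney and 1, Emcn, was higher (medians -1.17 against lung and -0.82 against heart). Vwf, the clotting protein of large-vessel endothelium, gave 145, 94.5, 123, 93.3 and 79.6 in kidney, 2036, 2158, 2087 and 2545 in lung and 1297, 1056, 788 and 995 in heart. The kidney arrays lay far below both, with differences of -4.20 (SE 0.17) and -3.10 (SE 0.17). Kdr, the VEGF receptor, gave 1977, 1161, 1166, 1582 and 1826 in kidney and differed by -1.49 (SE 0.16) and -1.31 (SE 0.16). Emcn, a sialomucin of capillary endothelium, averaged 3992 ± 609 in kidney, 2939 ± 257 in lung and 2301 ± 270 in heart. Plvap, of fenestrated endothelium, averaged 3576 in kidney and 3722 in lung. With the description letter as a block, 8 of the 18 were lower and none was higher.

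Of 14 tested genes of fibroblasts and matrix 9 were lower. Eln, elastin, gave 2488, 2318, 2128, 2613 and 2604 in kidney, 22132, 18935, 16045 and 20412 in lung and 19362, 15660.1, 15716 and 11422 in heart, and differed by -2.98 (SE 0.15) and -2.65 (SE 0.15). Postn, periostin, averaged 2577 ± 504 in kidney against 15320 ± 781 and 15960 ± 1710. Dcn, decorin, was above lung and below heart. The count fell to 5 under quantile normalization and also with the description letter as a block. Of 10 tested macrophage genes 4 were lower, among them Lyz2 with 906 ± 164 in kidney and 24210 ± 1650 in lung. The nearer differences were small, at -0.885 for Lyz2, -0.42 for C1qa, -0.392 for Adgre1 and -0.322 for Mrc1. With a 2-fold minimum against each organ the count was 0. Without kidney replicate 5 the count was 2, and with the letter as a block it was 1. Of 7 tested genes of neutrophils and mast cells 4 were lower, and with the letter as a block none.

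All 3 organs were labelled as rapidly proliferating. Of 30 tested cell cycle genes none was higher and 1, Prc1, was lower, and the medians were -0.31 against lung and -0.32 against heart. Against single organs 7 were below lung, 4 below heart and 1 above heart. The 31 cell cycle genes with a value averaged 10.42 on heart replicate 1 and 9.35 to 9.69 on the other heart arrays. Mki67, the usual proliferation marker, averaged 1325 ± 381 in kidney, 1836 ± 325 in lung and 1640 ± 1227 in heart (SD, n = 5, 4 and 4). Prc1, of the mitotic spindle, gave 435, 908, 663, 680.3 and 670 in kidney, 1021, 1015, 1056 and 1207 in lung and 1764, 980.3, 847 and 1247 in heart, with overlap, and differed by -0.70 (SE 0.22) and -0.81 (SE 0.22) (adjusted p = 0.018 and 0.0068). With the description letter as a block, 20 of the 30 were lower, and without lung replicate 5 none was.

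Genes of the adrenal gland, which lies on the kidney, differed between kidney arrays. The 15 adrenal genes with a value, of which 13 were tested, had means of 6.21, 6.80, 8.63, 8.45 and 7.12 on kidney replicates 1 to 5. Their means were 6.62 to 6.90 on lung and 6.50 to 7.18 on heart. Replicates 3 and 4 stood apart. Hsd3b1, a steroid dehydrogenase of the adrenal cortex, gave 57.5, 42.3, 2856, 2169 and 135 in kidney and was called higher (3.23 (SE 1.05) and 3.03 (SE 1.05)), as was the ACTH receptor Mc2r (1.20 (SE 0.41) and 1.84 (SE 0.41)). Star, the cholesterol carrier of steroid-making cells, gave 156, 201, 472, 481 and 205 in kidney and was not called. With the description letter as a block Star was called higher (nearer difference 2.06 against 0.64), Hsd3b1 and Mc2r were not called although their nearer differences were larger (3.94 and 1.54), and the adrenal count was 1. None of the adrenal genes was higher without kidney replicate 3 or without replicate 4, and 1 was lower without both. Without kidney replicate 1, 4 were higher, and without replicates 1 and 5, 6 were. The count was 1 without kidney replicate 5, without heart replicate 1 or 2, and without lung replicate 2, 3 or 5.

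The 17 liver genes with a value had means of 9.81, 8.00, 7.90, 8.35 and 8.96 on the kidney arrays, 6.58 to 7.89 on lung and 6.36 to 7.33 on heart. Of the 16 tested, 5 were called higher. Alb, albumin, gave 11531, 682, 451, 886 and 2921 in kidney, 257, 1333, 701 and 289 in lung and 842, 1054, 683 and 182 in heart, and was not called. Its highest kidney array was replicate 1, and replicate 3 lay below lung replicate 2. Ttr, transthyretin, gave 18231, 12740.1, 18079, 14145 and 12499.9 in kidney and differed by 6.16 (SE 0.48) and 5.70 (SE 0.48). Afp, alpha-fetoprotein, gave 5367, 2772, 4121, 5134 and 3199.7 in kidney and differed by 4.48 (SE 0.72) and 5.32 (SE 0.72) (adjusted p = 0.00015 and 2.7e-05). Serpina6, which encodes the carrier of glucocorticoids in blood, gave 16321, 8396, 9830.3, 10960.4 and 11996 in kidney against 42.4 to 108 in lung and 26.6 to 99.0 in heart. Fgb, a fibrinogen chain, gave 825, 70.7, 74.3, 118 and 205 in kidney, again with replicate 1 highest, and was called higher (2.62 (SE 0.53) and 3.11 (SE 0.53)). Ucp1, of brown fat, ranged over 55.5 to 2816 in kidney, 14.5 to 1288 in lung and 6.6 to 2328 in heart, and none of 7 brown fat genes was called. With the description letter as a block 2 liver genes were higher. The part that tissue taken along with the organ had in these values was not tested.

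**Figure D4:**
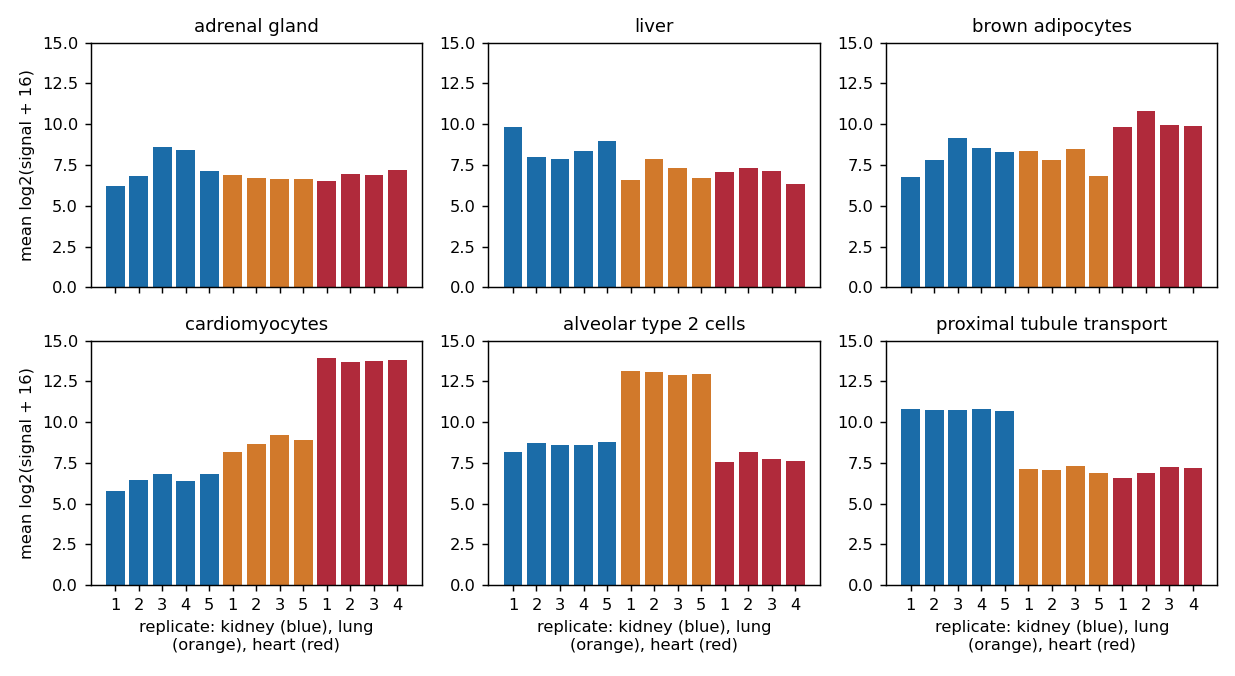
Mean log2(signal + 16) of all members with a value, tested or not, of 6 gene lists on each of the 13 arrays, with kidney replicates in blue, lung in orange and heart in red. The adrenal mean is 8.63 and 8.45 on kidney replicates 3 and 4 and the liver mean 9.81 on replicate 1, whereas proximal tubule transport is level over the 5 kidney arrays at 10.67 to 10.78.

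The genes higher in kidney had a median SD of log2(signal + 16) of 0.21 over the 5 kidney arrays, against 0.25 over all genes tested and 0.25 over the lower genes. The spread over these arrays enters the call itself, so called genes are chosen in part for a small SD. An SD over 1 was found for 170 of all 14309 genes tested and for 11 of the 1233 lower ones. Among the 1854 higher genes 3 had one, Hsd3b1 (2.71), Fgb (1.35) and Rab3b (1.02). Rab3b, a vesicle traffic gene, ranged from 63.2 to 514 on the kidney arrays. The next 2 were the glucagon receptor Gcgr, from 39.2 to 314 (SD 0.96), and the neuropeptide gene Npy, from 254 to 1124 (SD 0.93).

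To ask how much of the profile lasts, the same comparison was made on the 15 arrays of 4 weeks, when the labels call the organs slowly proliferating. At that age 16.2% of genes tested were higher in kidney than in both organs and 17.3% were lower. Of the 1854 genes higher at 1 week 1794 were tested at 4 weeks, and 1417 (79%) were again higher while 8 were lower. Of the lower genes 1211 were tested, and 1019 (84.1%) were again lower while 5 were higher. The share called higher again went up with the size of the 1-week difference. It was 65.7% of genes with a nearer difference under 1, 87.3% between 1 and 2, 94.4% between 2 and 3, and 98.5% (259 of 263) at 3 and over. Small differences pass the threshold at 4 weeks less readily even if unchanged, so this rise does not measure how much of each difference lasts.

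The change itself was tested as the kidney difference at 4 weeks minus that at 1 week, in 1 fit of 28 arrays. It was positive against both organs for 648 of 14857 genes (4.36%) and negative against both for 1069 (7.20%). With all arrays as labelled these counts were 403 and 554. A negative change is a loss of distance only for a gene above the other organs. Among the 1854 genes higher at 1 week, 293 changed upward, away from the other organs, and 144 downward. Among the 1233 lower genes, 260 changed downward, away from the other organs, and 37 upward. Both sets were chosen by the same 1-week differences that the change subtracts, so these splits cannot be read apart from that choice.

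Among the lists, proximal tubule transport and amino acid metabolism held the most upward changes. Of 45 proximal tubule transport genes tested 27 changed upward and none downward, of 34 amino acid genes 22 and none, and of 27 xenobiotic genes 13 upward and 2 downward. Slc34a3, a phosphate transporter, averaged 658 ± 97.4 at 1 week and 4127 ± 556 at 4 weeks in kidney, with changes of 2.5 (SE 0.42) against lung and 2.65 (SE 0.42) against heart. Hpd averaged 5212 ± 934 in kidney at 4 weeks (changes 4.83 (SE 0.32) and 4.93 (SE 0.32), adjusted p = 4.7e-11 and 2.6e-11). Akr1c21, a steroid dehydrogenase gene, averaged 629 ± 122 and 20700 ± 2925 in kidney (changes 4.59 (SE 0.33) and 4.74 (SE 0.33)). Egf averaged 1067 ± 188 and 23660 ± 3701 (changes 4.65 (SE 0.20) and 4.46 (SE 0.20)). Serpina1f, under the filter at 1 week with 89.2, 97.2, 133, 122 and 79.6 in kidney, averaged 9288 ± 637 at 4 weeks.

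In several developmental lists the changes were downward. Of 18 tested progenitor and early nephron genes 7 changed downward and none upward, and of 10 stromal genes 7 and none. Of 22 podocyte genes 9 changed downward and none upward, and of 9 posterior Hox genes 3 and none. Of 13 ureteric bud genes 2 changed downward and 1 upward, too few to set apart from the 7.20% and 4.36% of all genes. Lower than both organs at 4 weeks were 4 of 9 stromal and 3 of 22 podocyte genes, against 2 and 0 at 1 week. Over all genes tested this share went from 8.62% to 17.3%, so the podocyte count does not stand apart from it. Cdkn1c, a cell cycle inhibitor made in podocytes, gave 12816, 7812, 9379, 9038 and 8798 in kidney at 1 week and averaged 718 ± 128 at 4 weeks, under the lung mean of 1747 (changes -3.48 (SE 0.20) and -3.19 (SE 0.20), adjusted p = 4.6e-12 and 1.7e-11). Penk averaged 204 ± 34.1 in kidney at 4 weeks, against 179 in lung and 183 in heart, and was not called at that age (changes -2.87 (SE 0.28) and -4.29 (SE 0.28)). Ncam1 averaged 138 ± 67.3 and Wnt9b 143 ± 104 in kidney at 4 weeks, with changes against heart of -2.10 (SE 0.66) and -2.52 (SE 0.51). Wt1 averaged 226 ± 48.6 at 4 weeks (changes -1.83 (SE 0.24) and -1.32 (SE 0.24)). Hoxd10 and Hoxd11 kept a kidney lead at 4 weeks with averages of 671 and 127, and changes against heart of -1.54 (SE 0.30) and -1.11 (SE 0.32). The largest downward changes also included the proton pump gene Atp12a (1618 ± 324 at 1 week and 80.5 ± 19.3 at 4 weeks in kidney), the defensin gene Defb19 (806 ± 195 and 37.9 ± 27.0), the protease gene Htra3 (1526 ± 169.8 and 65.8 ± 45.4), Dclk1 (510 ± 43.9 and 30.1 ± 18.4) and Hdc, the enzyme that makes histamine (1517 ± 387 and 11.3 ± 5.55). Neither Hdc, which averaged 1285 ± 226 in lung, nor Htra3, which averaged 1249 ± 216 in heart, was called higher at 1 week. Htra3 was called higher without heart replicate 3 (nearer difference 0.37), without kidney replicate 3 (0.37) and with the description letter as a block (0.68), and Hdc with the mean of all probe sets (0.82).

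**Figure D5:**
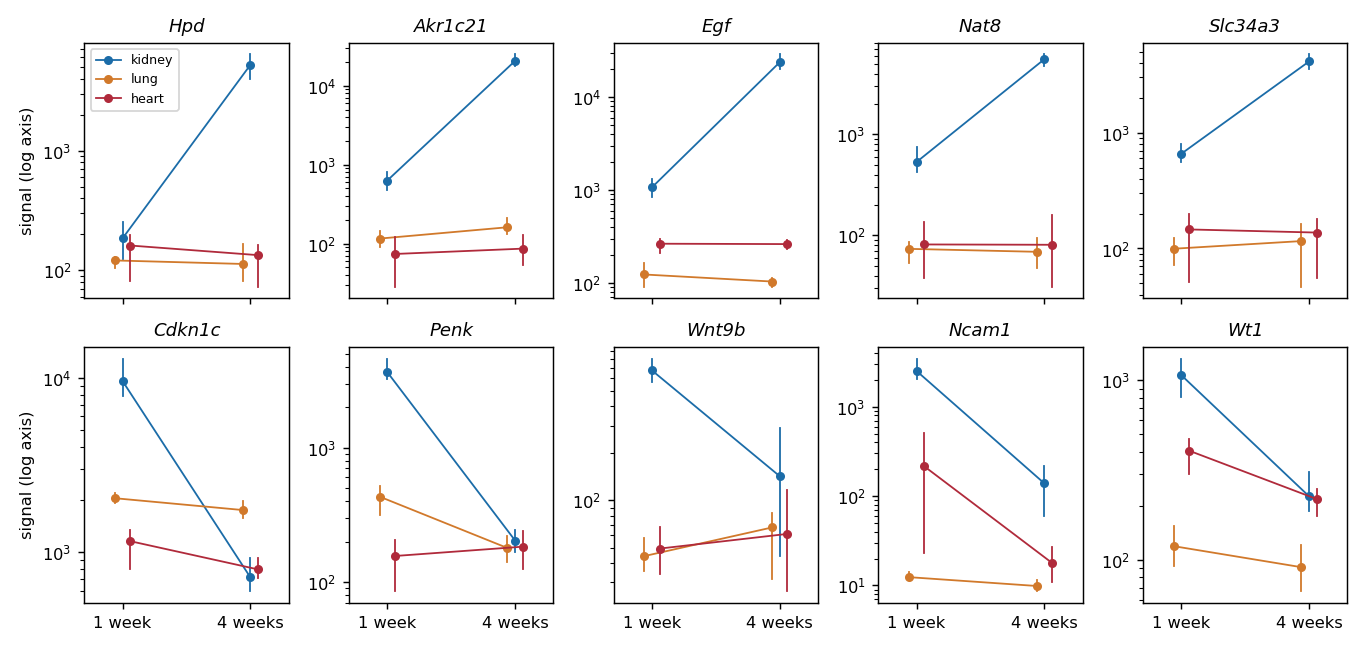
Mean signal (log axis, points) with the lowest and highest array (bars) in kidney, lung and heart at 1 and 4 weeks for 10 genes, on 5 kidney, 4 lung and 4 heart arrays at 1 week and 5 of each at 4 weeks. The 10 genes were picked and placed in rows by the direction of their change, with the values known. In the upper row the kidney separates further from the other organs with age, and in the lower row the 1-week lead of the kidney shrinks or is lost.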

How the data were processed

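Whole-organ RNA was hybridised to Affymetrix mouse arrays. The deposited values are linear intensities per probe set with a 2% trimmed mean equal on all arrays. RMA and Partek 6.6 are named, per the submitters' processing notes, but how the linear values were scaled is not given in the sources used here. Precision is limited by the number of arrays.

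Of 45101 probe sets 34958 had 1 gene symbol in the platform annotation, 932 had several and 9211 none, and 64 were controls. Of the probe sets of each of 18194 genes the brightest over 40 arrays was kept. Genes entered the tests if at least 1 organ averaged 117.9 or more, the signal at the 40th percentile. Differences of log2(signal + 16) were fitted with limma 3.58.1 in R 4.3.3 (data.table version 1.17.8), with Benjamini-Hochberg adjustment within each contrast and a threshold of 0.05. Kidney minus lung and kidney minus heart share the kidney arrays. Figures and the promoter search used Python 3.11.15 and matplotlib 3.10.9. The fits were tested on simulated data.

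Of 674 entries in 41 gene lists 616 had a value, and the others are not analysed here. The members and lists were chosen with earlier results of these data known. Named genes were the 15 higher and 10 lower genes with the largest nearer difference and no overlap, up to 4 called members of each list, the 5 genes per direction with the largest change between the ages, and a short set of well-known markers. Other genes, and the motifs, were chosen after values were seen.

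Alternatives were offsets of 1 and 64, no filter and a 60th percentile filter, quantile normalization, the mean of all probe sets, all arrays as labelled, another variance model, blocks by replicate number, description number and description letter, a 2-fold minimum, and leaving out arrays. With the letter as a block, kidney and lung are linked through heart replicate 1 alone.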

Additional observations from a re-analysis of the deposited data

Results flagged for a closer look

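Among 189 groups of 4 or 5 arrays checked for an array far from its group, 14 had one, where chance gives about 1 in 20. Kidney replicate 1 stood highest for Alb (11531.1, next 2920.6), Cdh16 (24603.2, next 18397.8) and Cubn (8493, next 5964.8), and lowest for Ret (94.7, next 274.8). Kidney replicate 3 was lowest for Lhx1 (198.1, next 305.4), and kidney replicate 5 highest for Myh6 (86.9, next 22.4).

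Heart replicate 2 stood highest for Ucp1, the uncoupling protein of brown fat (2328.2, next 8.8), for the mean of the brown adipocyte genes (10.79, next 9.96), for Pck1 (292.7, next 6.5) and for Lrp2 (49.4, next 14.2). Lung replicate 2 was highest for Lrp2 (439.3, next 271.2) and lowest for Pcolce2 (2560, next 3003). Lung replicate 3 was highest for Kl (80.8, next 15) and lung replicate 5 for Pdzk1 (69.2, next 34.6).

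The kidney difference changed between 1 and 4 weeks against both organs, upward for 648 genes and downward for 1069, by a test of the change itself in limma.

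On the arrays left out, Sftpc read 27186.8 on the array labelled heart replicate 5, where the other hearts reached at most 1072.5. Myh6 read 36022.4 on the array labelled lung replicate 4, where the other lungs reached at most 1867.9.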

How the results depend on the processing

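Main counts were 1854 genes higher and 1233 lower at 1 week, 1417 and 1019 of them called the same way at 4 weeks, and 648 upward and 1069 downward changes of the kidney difference between the ages. Asking for a 2-fold difference from each organ left 943 and 408, the description letter as a block gave 708 lower genes, and all arrays as labelled gave 403 upward and 554 downward changes. The blocks and the 2-fold minimum were run for the 1-week counts alone. All other counts that were run lay within 1.5 times of the main ones. Leaving out 1 array gave 1693 to 1915 higher, 1117 to 1358 lower, 1336 to 1447 and 938 to 1056 persisting, 595 to 664 upward and 970 to 1060 downward changes. The cause of these shifts was not tested.

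With the replicate block 1841 genes were higher and 1240 lower. Arrays that share a title number had deviations correlating at -0.125 to 0.442 over 11 pairs (median 0.063). The other 45 pairs gave -0.3 to 0.268 (median -0.007). Spread particular to each organ can hide a shared animal, so these values do not settle whether the numbers pair the arrays.

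Of 155 named results 33 had another call under at least 1 setting and 8 when 1 array was left out, and none reversed. With the letter as a block Afp, Fga, Fgb, Hsd3b1, Mc2r, Hoxc6, Cdh5, Sox18, Mfap4 and Acta1 were among those no longer called, of which Hsd3b1, Mc2r, Hoxc6, Fgb and Acta1 kept nearer differences at least as large (3.94, 1.54, 1.75, 2.75 and -3.84). Star, Hpd and Htra3 became called. Signals near the offset of 16 limit folds against lung and heart, and heart replicate 1 alone shares the letter of the kidney arrays.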
